A study of Prunus persica with 8 samples.

Results

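Among 12883 annotated peach genes with at least 5 FPKM in some stage, 89 were switched up between the first and the second sampling of the flower buds and then held their level. FPKM is the number of sequenced fragments scaled to the length of the gene and the size of the library. Members were chosen on the values themselves. On the log2(FPKM + 1) scale, the level at 200 chilling units (200CU) had to exceed that at 0CU by 1 or more. The levels at 200CU, 475CU and 770CU had to lie within a range below 0.5 on the same scale. The search covered 20833 of the 22285 features of the table, namely those with PRUPE_ identifiers outside 1 block of chromosome 1 that the rule leaves out, and the members made up 0.691% of the 12883 above the floor. All 4 stage values entered the choice, so every difference between stages below is a description of the genes chosen and carries no test.

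RNA-Seq was performed on peach flower buds (Prunus persica, cultivar Fantasia) taken from 10-year-old orchard trees over autumn and winter. Total RNA was depleted of ribosomal RNA and read from both ends, with 2 libraries for each stage according to the labels. For 0CU, 475CU and 770CU the study's methods describe buds stripped of their scales and grouped from several plants. They do not mention a collection at 200CU. The 4 stages were buds before chilling (0CU) and after 200, 475 and 770 chilling units, collected 0, 18, 35 and 63 days after the first date. No stage was sampled on more than 1 day, so chilling, calendar time and the conditions of the collection day cannot be told apart, and no unchilled buds of a later date were included. The deposited table holds a single value per stage, but for 98.2% of the features it could be split into 2 libraries of whole fragment counts whose average it is. These recovered libraries had effective sizes from 18051083 to 25374451 fragments. Since the file does not say which of them is which replicate, they are called the larger and the smaller library of a stage.

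Flower buds of temperate fruit trees stop growing in autumn and enter endodormancy, a state in which growth is held back from inside the bud. A spell of cold, counted in chilling units that weigh each hour by its temperature, is needed before warmth can bring the buds into growth. A transcript that rises early and then stays level follows another course than one that tracks the sum of chilling. The identifiers of the table are not paired with gene names, and none of them matched the RefSeq genes of peach. The members are therefore described by level, library, length and position. The few genes that the paper names by identifier are not among the members. With no list of marker genes or pathways given by identifier, the label of the tissue was not checked against markers and no pathway was counted.

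The members had a median of 6.34 FPKM at 0CU (quartiles 3.5 and 16.8), where the median of all 12883 features was 14.5. At 200CU the median of the members was 18.4 FPKM (quartiles 9.48 and 55.3), above the 14.6 FPKM of all features. At the last 2 stages it was 18.9 and 19.4 FPKM, while that of all features stayed at 14.6 and 14.3. The median of the members thus went from below that of all features to above it within the first 18 days and remained there. The choice of members requires a rise and a steady level after it, so this describes the genes chosen. In bulk buds, a change in the number of cells that hold a transcript and a change in the amount per cell cannot be told apart.

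**Figure D1:**
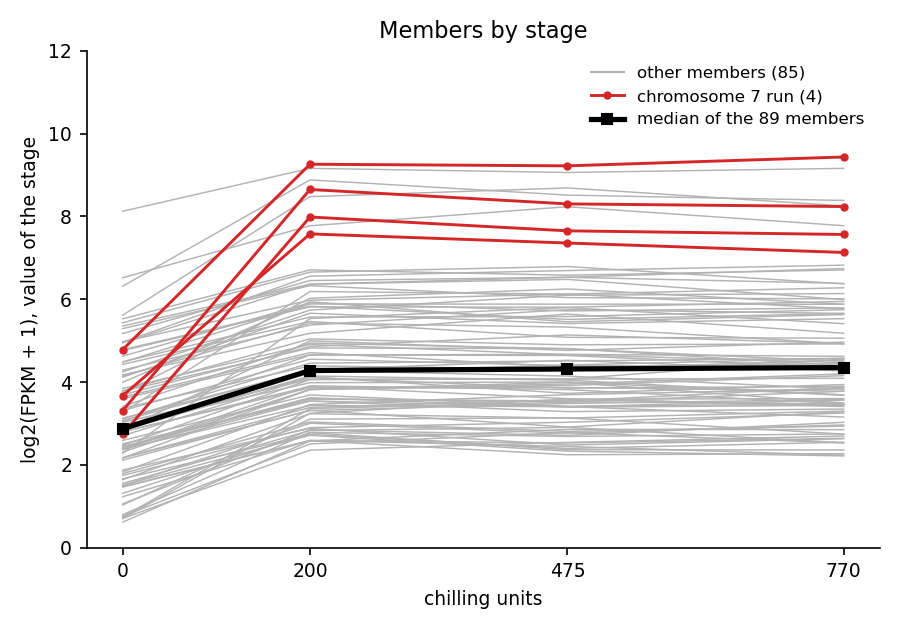
Level of each of the 89 members, as log2(FPKM + 1) of the stage value, against the chilling units of the 4 stages. Grey lines are 85 members, red lines the 4 members of a run on chromosome 7, and black squares the median; lines climb to 200CU and are near flat afterwards, as the choice of members requires.

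Rises were mostly close to the limit, with a long upper tail. The difference from 0CU to 200CU had a median of 1.25 on the log2(FPKM + 1) scale (quartiles 1.09 and 1.59) and a highest value of 5.34. In plain FPKM the ratio of 200CU to 0CU had a median of 2.73 and ran from 2.03 to 44.8. Of the 89 members, 59 rose by less than 1.5 on the log2 scale, 13 by at least 2 and 5 by at least 3. Among all 12883 features, 272 (2.11%) rose by at least 1 and 161 (1.25%) fell by at least 1. Of the 272, 102 rose by at least 1.5, 46 by at least 2 and 12 by at least 3, so members were found at every size of rise.

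The opposite pattern, a fall of at least 1 followed by the same narrow range, was met by 43 features (0.334%). A range below 0.5 over the 3 chilled stages was the usual case, found in 10126 features (78.6%). Among the genes that rose it was the exception. Of the 272, 32.7% stayed within it, and of the 161 that fell 26.7% did. The other 183 risers went on to change, with a median range of 1.11 over the 3 later stages, 76 of them ending above and 107 below their 200CU level.

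**Figure D2:**
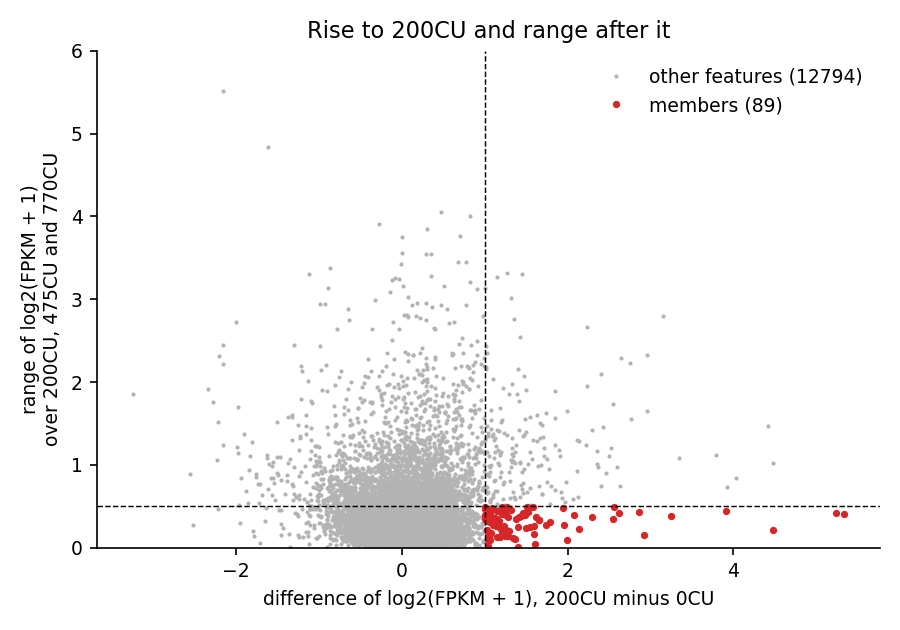
Difference of log2(FPKM + 1) between 200CU and 0CU (horizontal axis) against the range of log2(FPKM + 1) over 200CU, 475CU and 770CU (vertical axis) for 12883 features. Dashed lines mark the limits of 1 and 0.5 that define the 89 members, in red; they form the lower right corner of a continuous cloud and are densest next to the limit of 1.

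Both limits cut through a continuum. The members just inside the limit on the rise had a difference of 1.001, and the nearest gene outside, with a range that would have qualified, had 0.997. For the range, the nearest values were 0.498 inside and 0.502 outside. The lowest peak level was 5.01 FPKM, with the next gene of the same pattern at 4.62, and 23 features showed the pattern below the floor of 5 FPKM.

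After 200CU the members drifted little. The median difference was -0.06 from 200CU to 475CU (quartiles -0.23 and 0.14) and 0.02 from 475CU to 770CU (quartiles -0.23 and 0.15), and the range over the 3 stages had a median of 0.34. Between 200CU and 770CU the median was -0.12, with 33 members higher and 56 lower at the last stage. Of the 3 later values the first was the highest in 42 members, the second in 21 and the last in 26. Leaving 0CU aside, 200CU was thus the highest stage in 47.2% of the members and in 37.3% of all features. It was also the highest in 48.1% of the risers that did not stay level. Both sets were chosen on a high 200CU value, which favours this outcome, and nothing is read from it.

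Abundance spanned a wide range. The mean over the 3 later stages ran from 4.19 to 633 FPKM, with 21 members below 10 FPKM, 58 between 10 and 100 FPKM and 10 at or above 100 FPKM. The last class was 11.2% of the members and 4.70% of all features above the floor. These 10 abundant members held from 5.71 to 278 FPKM at 0CU (median 37.7) and from 93.2 to 612 FPKM at 200CU (median 304). At the other end, 6 members lay between 0.539 and 0.741 FPKM at 0CU and reached 4.13 to 9.28 FPKM at 200CU, with rises of 1.65 to 2.62. The 34 members that started between 5 and 20 FPKM and the 19 that started higher had median rises of 1.25 and 1.22. The members thus included genes with a higher start, though the share of members at each starting level was not counted.

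Summed over all 89, the members held 0.333% of the FPKM of the PRUPE_ features at 0CU. In the chilled stages their share was 1.25%, 1.17% and 1.2%. Part of this gain sat in 4 genes of chromosome 7, described below, and most of it in the other members. Without them, the share went from 0.320% before chilling to 0.912% at 200CU and 0.881% at the end.

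Libraries could be recovered for 88 members and 12495 of the features above the floor. Both 200CU libraries exceeded both 0CU libraries in 87 of the 88, where 33.0% of all recovered features did so; the choice of members favours this outcome, and nothing is read from it. A stricter condition, the lower 200CU library at 2 or more times the higher 0CU library, was met by 61 members and 1.72% of the features. In 87 members all 6 later libraries stood above both 0CU libraries (21.0% of the features). A rise of at least 1 on the log2 scale was present in each of the 4 pairings of a 0CU with a 200CU library for 48 of the 88 and for 1.31% of the features.

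**Figure D3:**
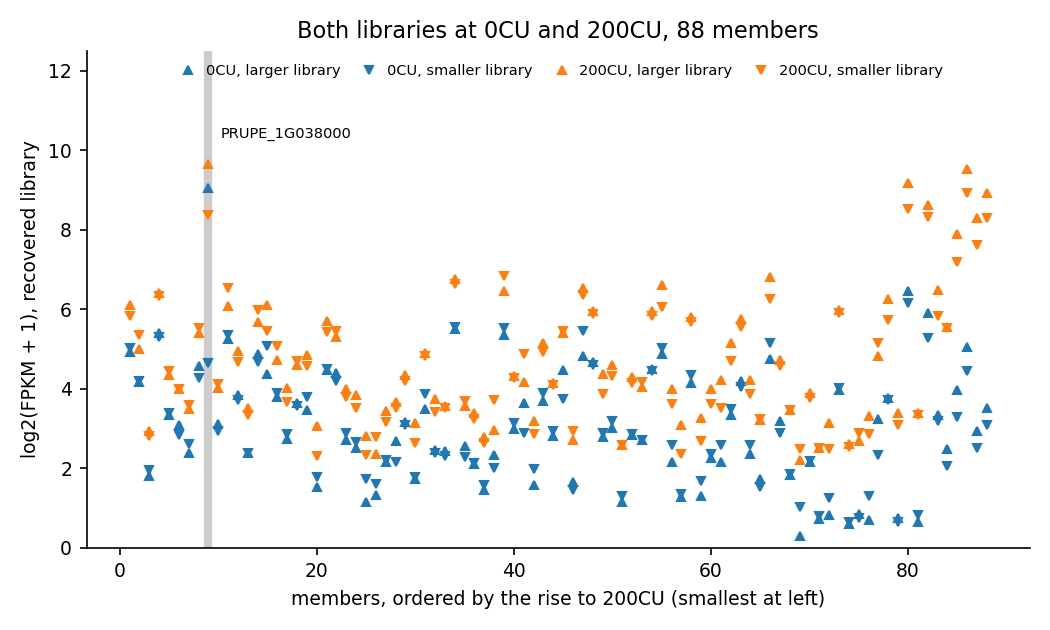
log2(FPKM + 1) in each recovered library at 0CU (blue) and 200CU (orange) for 88 members, ordered along the horizontal axis by the rise of the stage value. Upward triangles are the larger and downward triangles the smaller library; orange lies above blue in 87 members, and the grey band marks PRUPE_1G038000, the member in which they overlap.

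The later stages were compared by library in the same way, and the members' counts were near or below what the shares over all features would give. The limit on the range over these stages favours low counts, and nothing is read from them. Both 770CU libraries lay below both 200CU libraries in 30 of the 88 members and above them in 14, the shares over all features being 33.7% and 33.9%. For 475CU against 200CU these counts were 20 below and 11 above (25.7% and 29.5%). Between 475CU and 770CU, 25 members were lower (34.3%) and 18 higher (30.2%). When the rule was applied to 1 library per stage, in the 16 possible combinations, between 73 and 94 genes met it. Only 18 of the 88 members met it in all 16 combinations, 63 met it in at least 8, and 5 met it in none although their stage values did. No gene outside the 89 met it in all 16.

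In every stage the median gap between the libraries was wider over the members than over all features. At 200CU the absolute log2 difference between the libraries had a median of 0.27 over the members and 0.13 over all recovered features. The medians were 0.17 and 0.13 for 0CU, 0.16 and 0.08 for 475CU, and 0.13 and 0.09 for 770CU. The difference tended to one side at all 3 chilled stages, most at 200CU and at 770CU. The larger library was the higher in 63 of the 88 members in the former stage (51.6% of all features) and 62 in the latter (54.3%), compared with 52 for 475CU (48.9%) and 36 for 0CU (46.6%). The median excess of the larger library over the smaller was 0.15 at 200CU, in a group whose median rise was 1.25. When either of the 200CU libraries was left out, 59 of the 88 members still met the rule, and at least 75 did without any other single library.

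The least even member was PRUPE_1G038000 (chromosome 1, recovered length 908 bases), singled out after its values were seen. In stage order its values were 278, 571, 533 and 571 FPKM. Its larger and smaller 0CU libraries held 533 and 23.9 FPKM, those of 200CU 811 and 332, those of 475CU 513 and 554, and those of 770CU 938 and 205. The 0CU and 200CU libraries overlapped, and the rise of 1.04 was smaller than the gap of 4.42 between the 0CU libraries. The gap between its libraries ranked second among the 12495 features at 0CU and first at 770CU, whereas at 475CU its libraries were close to each other. Among the other members the closest approach of a 200CU to a 0CU library was a ratio of 1.32.

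Of the rises of the 12883 features, the 3 largest and the eighth were found in members lying close to each other on chromosome 7. Within 7 successive listed gene numbers lay 4 members, and their rises were the 4 largest of the 89. PRUPE_7G051300 (recovered length 729 bases) had the largest rise, from 8.95 FPKM before chilling to 401, 315 and 301 FPKM in the chilled stages. Its larger and smaller 0CU libraries held 10.5 and 7.45 FPKM, those of 200CU 487 and 315, those of 475CU 325 and 305, and those of 770CU 307 and 295. The lower 200CU library was thus 30.1 times the higher 0CU library, and the stage values differed by 5.34 on the log2 scale, a ratio of 44.8.

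Its neighbour PRUPE_7G051200 (recovered length 1258 bases) was the most abundant member. It went from 26.6 FPKM before chilling to 612, 596 and 691 FPKM after, a rise of 4.47. The 0CU libraries held 32.3 (larger) and 20.8 FPKM (smaller), those of 200CU 738 and 487, those of 475CU 624 and 568, and those of 770CU 741 and 641. PRUPE_7G051200 ended above its 200CU stage value and PRUPE_7G051300 below. In PRUPE_7G051200 the libraries of 200CU and 770CU overlapped, so its later difference is not resolved.

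The first member of the run had 5.71, 253, 200.2 and 188 FPKM in stage order, and the last 11.7, 190.1, 163 and 139 FPKM. Their rises were 5.24 and 3.91. All 4 genes were higher in the larger library at 0CU, by 1.4 to 1.70 times, and at 200CU, by 1.52 to 1.65 times. At 475CU and 770CU the libraries were closer, with ratios from 1.04 to 1.19. Between stages the 4 genes shared the rise to 200CU, which the rule requires. From 200CU to 770CU the first member, PRUPE_7G051300 and the last differed by -0.42, -0.41 and -0.45 on the log2 scale. PRUPE_7G051200 differed by 0.17. Within each stage the larger library was the higher in all 4. Even so, the lowest 200CU library exceeded the highest 0CU library by 9.72 to 30.1 times in each of them.

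The other genes listed inside the run read differently. One, in the sixth place, had 0.535, 7.65, 14.5 and 17.6 FPKM in stage order, and so was a riser without a flat later course. The second and the fifth were at 0 FPKM at 0CU and below 0.6 FPKM in every later stage. The genes flanking the run stayed below 4 FPKM in all stages. Together the 4 members summed to 53.0, 1456, 1274 and 1320 FPKM over the stages. Their part of the summed FPKM of the members went from 3.81% at 0CU to 27.3% at 200CU. Whether the 4 genes are near-identical copies could not be examined, and how reads that match several genes were counted is not given in the sources used here, so the division of the signal among them is uncertain.

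**Figure D4:**
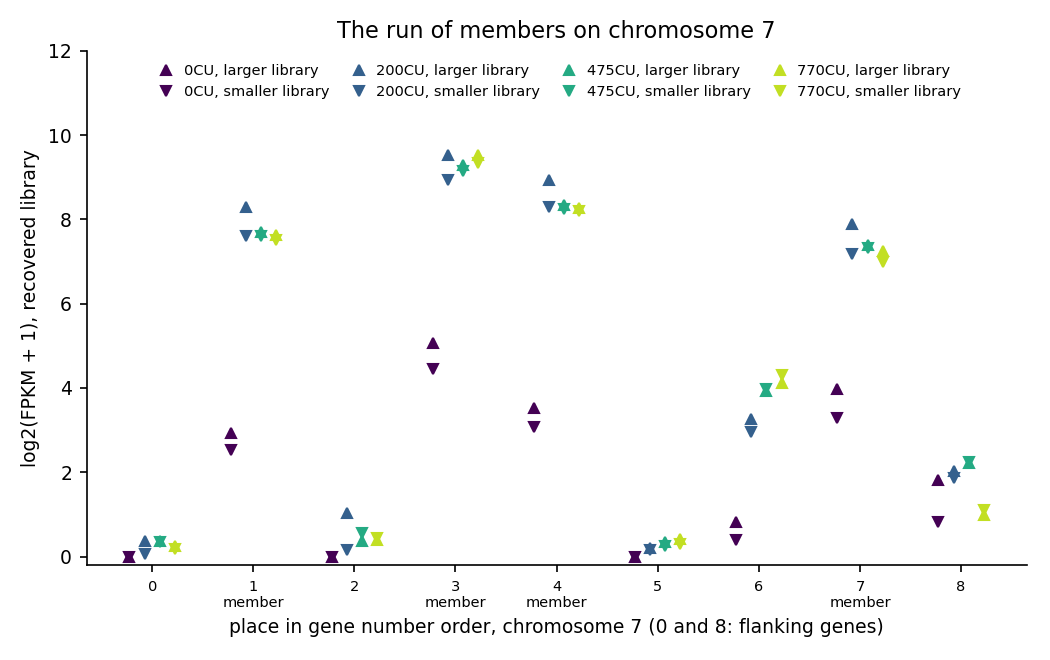
log2(FPKM + 1) of each recovered library for the genes listed in and beside the chromosome 7 run, in gene number order, with colours for the 4 stages and triangles for the larger (up) and smaller (down) library. The members, in places 1, 3, 4 and 7, stand far above their 0CU level in all 6 later libraries, while the genes between and beside them are low or, in place 6, climb at each stage.

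There were 4 further runs, with members at most 3 listed gene numbers apart. A run of 4 members on chromosome 1 alternated with genes of another course. Its members went from 7.41, 12.0, 42.2 and 6.20 FPKM at 0CU to 18.7, 28.0, 99.9 and 17.7 FPKM at 200CU, rises of 1.23, 1.16, 1.22 and 1.38. The 3 genes between them differed by -0.36, -0.37 and 0.19 over the same step. Close rises in alternate genes, with little change between them, set this run apart in form from the one on chromosome 7.

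The other 3 runs were pairs. One on chromosome 8 rose from 48.1 to 356 FPKM and from 12.3 to 64.1 FPKM between 0CU and 200CU, and the 2 genes listed between them also rose by at least 1 but did not meet the rule. The second pair of chromosome 8 rose from 4.23 to 13.1 and from 4.56 to 15.7 FPKM, and a pair on chromosome 2 from 11.5 to 25.2 and from 1.84 to 7.04 FPKM. In the latter, the next gene in line had a rise of 0.99 and a range of 0.29, and so missed the group by a narrow margin.

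Over all members, 6 of the 178 immediate neighbours in gene number (3.37%) were members as well, whereas members were 0.438% of the 20301 gene numbers listed. Adjacent members are counted from each side, so these neighbours are not independent of each other. The share was 2.35% (4 of 170) without the chromosome 7 run and 3.75% over 3 neighbours on each side. Closeness was not particular to the steady risers. Of the 352 neighbours of the 183 risers that did not stay level, 30 (8.52%) belonged to the same set (0.901% of listed gene numbers). For the 43 genes that fell and then stayed level the share was 2.33% (0.212%), but this rests on only 2 of 86 neighbours. Runs held 14 of the 89 members (15.7%), 20.2% of the other risers and 9.30% of the steady fallers. A larger set has more genes close together at the same spread, so these 3 shares cannot be compared as closeness. Neighbours that were not members had a median difference of 0.10 from 0CU to 200CU, against 0.00 over all listed gene numbers.

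Members were found on all 8 chromosomes, as read from the gene numbers, with 1 on an unplaced sequence. Chromosome 8 held 15 of them, or 1.2% of its features above the floor, and chromosome 1 held 20 (0.682%). The lowest shares were those of chromosome 3, with 3 members (0.204%), and chromosome 6, with 5 (0.282%). For chromosome 3 this was not a lack of risers, of which it had 29 (1.97% of its features), while chromosome 6 had 19 (1.07%).

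Most members were short genes. The length recovered with the libraries had a median of 1366 bases (quartiles 954 and 1943), against 2260 bases over all 12495 features, and 75 of the 88 members were below the latter value. Of the members 27.3% were shorter than 1000 bases and 5.68% longer than 3000, where the shares of all features were 10.5% and 31.2%. The fraction of features that were members fell with length, from 1.83% below 1000 bases to 1.12% up to 2000, 0.446% up to 3000 and 0.128% above. Other genes with large changes were short too. The median was 1371 bases for the other risers and 1336.5 bases for all genes that fell by at least 1, so short length went with a large change in either direction. A short gene collects fewer fragments at the same FPKM and its counting error is larger. The members had 6 to 9963 fragments per library at 0CU, with a median of 205.5, and the part of counting error in the choice of members was not tested.

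**Figure D5:**
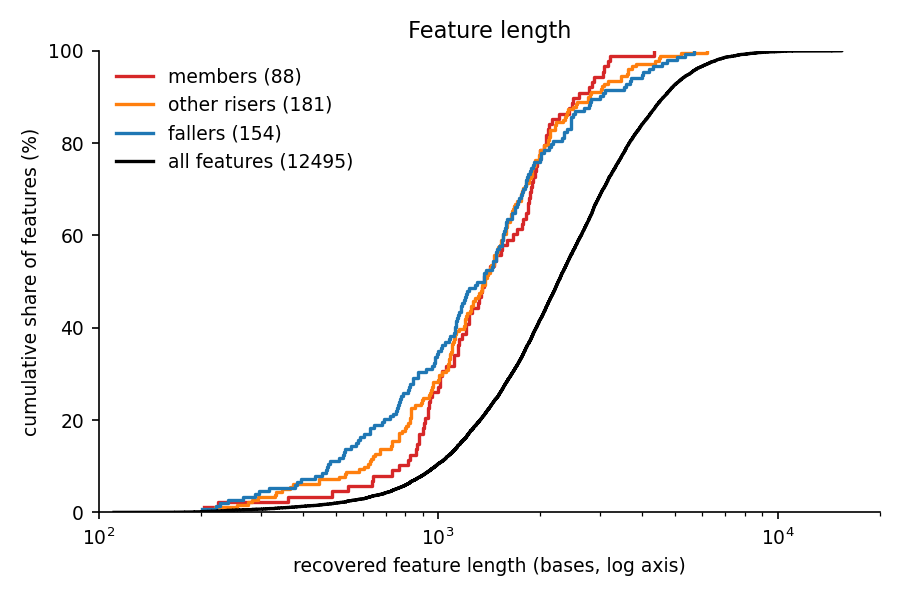
Cumulative share of features (vertical axis, percent) by recovered length in bases (horizontal log axis) for the members, the other features that rose by at least 1 to 200CU, those that fell by at least 1, and all features above the floor. The curves of the 3 changing sets run close together and to the left of that of all features, with medians of 1366, 1371 and 1336.5 against 2260 bases.

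The scale of the values bears on the height of the rise. Features with ENSRNA identifiers, which are annotated non-coding RNAs, held 42.5% of the summed FPKM at 0CU and 30.5% at 200CU. Bringing the stages to an equal sum, in the manner of TPM, moved the median of all features by 0.24 between these stages, and the median rise of the members from 1.25 to 1.49. Relative to the median of all features, the rise of the members was 1.24 before and 1.25 after this rescaling. At the rescaled values 486 features rose by at least 1, where 272 did as deposited. The rule applied to them found 173 genes, 77 of the 89 among them.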

How the data were processed

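The authors deposited 1 table of FPKM with 22285 features and 1 column per stage; each column was used as the authors' value for its stage, and 0 columns were left unused. The submitters' processing notes name Trimmomatic 0.39, HISAT2 and featureCounts. The genome build and annotation, the strand setting and the handling of multi-mapping reads are not given in the sources used here, so copies and overlapping genes may share reads. Stages were compared on log2(FPKM + 1), on which low genes show less than their full fold change.

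Each stage value was decomposed into 2 libraries, as the mean of whole fragment numbers divided by 1 gene length (30 to 20000 bases) and the library sizes, which need not equal the mapped fragments. This gave 21876 features with a largest relative difference of 5e-10. Simulated data were redrawn from 3000 features already solved, with their recovered lengths and the same library sizes and rounding. All 3000 were solved with their true values, compared as fragments divided by length and not as lengths. After the deposited values were shifted by up to 1e-06, 12 of 3000 were solved. The labels do not say that the libraries come from separate plants. The study's methods give 3 replicates of buds at 475CU, the labels 2 libraries. Counting intervals are not given, since no share of a single library is reported.

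No test was made, because the stage values chose the members. The genes and comparisons were chosen with earlier results of these data known. Genes named are the member with the highest mean over 200CU, 475CU and 770CU and that with the largest rise, plus 1 chosen after its values were seen. None of the identifiers (0) matched the 26412 RefSeq genes (assembly Prunus_persica_NCBIv2). Chromosomes and order were read from the gene numbers, and neighbours are those listed in the table. Alternatives covered the pseudocount, floor, limits, scaling, left-out libraries and, added after seeing the data, single libraries and the set without the chromosome 7 run. Python 3.11.15, numpy 2.4.6, pandas 2.3.3, numba 0.67.0 and matplotlib 3.10.9 were used.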

Additional observations from a re-analysis of the deposited data

How the results depend on the processing

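The number of members, 89, depended on the limits and on the scaling. It was 169 with a rise of at least 0.8, 54 with a rise of at least 1.2, 36 with a range below 0.3 and 173 after rescaling the stages to the same total, as TPM does, which also took the features with a rise of at least 1 from 272 to 486. It lay between 70 and 122 with a pseudocount of 0.1, a floor of 1 or 10 FPKM or none, a range below 0.7, and 3 other scalings, and between 71 and 98 when 1 library was left out. The median rise of 1.25 was 1.43 with a pseudocount of 0.1 and 1.49 at the same total, and ran from 1.23 to 1.37 with a library left out. The median difference from 475CU to 770CU, 0.02, was 0.24 at the same total, where the median of all features also moved, to 0.22. With a library left out it ran from -0.03 to 0.03, and that from 200CU to 475CU from -0.10 to 0.06, so neither small median has a stable sign.

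No paired analysis was possible because neither the stage columns nor the recovered libraries can be tied to a replicate number. No fit with a replicate block was run. With 2 libraries per stage and 1 collection day each, spread within a stage is poorly known. Fragment numbers as low as 6 at 0CU limit how well the size of the rise is known in the lowest members.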

Other observations

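Outside the PRUPE_ genes, the table lists assembled loci with XLOC identifiers. Of the 256 with at least 5 FPKM in some stage, 4 (1.56%) met the same rule, beside 0.691% of the PRUPE_ genes.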
